A study of Mus musculus with 4 samples.

Results

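The 10 genes described here are Trp53, which encodes p53, 8 genes that p53 is known to switch on (Mdm2, Trp53inp1, Ccng1, Zmat3, Cdkn1a, Bax, Bbc3 and Pmaip1) and Cdkn1b, a second inhibitor of cyclin-dependent kinases (CDKs). They were taken by symbol from the 38293 genes of the deposited table, and all 10 had a row there. RNA came from the ventricles of E12.5 mouse embryos of 1 litter (litter 6) on a C57BL/6 background, after the atria and valves had been cut away. In both groups both Hif1a alleles were floxed. The 2 libraries of the first group (genotype Hif1alphaflox/flox/Nkx2.5Cre/+, called cKO below) came from embryos that also had Cre recombinase at 1 Nkx2-5 allele, a locus active in heart muscle precursors. The 2 libraries of control littermates (Hif1alphaflox/flox/Nkx2.5+/+) had no Cre. Since every Cre-carrying embryo also had the floxed Hif1a, an effect of Hif1a loss cannot be told apart from one of Cre or of the altered Nkx2-5 allele.

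The transcription factor p53 is held at a low level in unstressed cells because the ubiquitin ligase MDM2, itself a p53 target, marks it for destruction. DNA damage and other stresses stabilise the p53 protein, which then raises genes that stop the cell cycle, repair DNA or start cell death. The amount of Trp53 mRNA is therefore a poor guide to p53 activity, and the level of the target transcripts is commonly read instead. In the embryonic heart, CDK inhibitors also restrain the division of cardiomyocytes as they mature.

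The promoters are shown first because most of these genes were listed as known targets of p53. RefSeq windows on GRCm38.p6, from 250 bases before to 50 bases after a transcript start, were found for 7 of the 10 genes. Trp53inp1, Zmat3 and Pmaip1 had no window. The 10-base p53 decamer was searched with no mismatch. Its consensus reads the same on both strands, and p53 binds where 2 such decamers lie close together. A decamer was present in 5 of the 7 genes, against 2582 of 27025 genes with a window (9.55%), and in 5 of their 10 windows, against 8.36% of all 32851 windows. Only the upstream window of Cdkn1a (of 2 windows for that gene) held a pair without mismatch, separated by 12 bases. Such a pair with a spacer of up to 13 bases occurred in 24 of all windows (0.0731%). In Cdkn1a the bases tgacatgttc directly follow the decamer GAACATGTCT and differ from the consensus only at their first base. The search left them out, so the pair it found need not be the p53 site. Capitals mark the decamers, and each sequence reads 5′ to 3′ on the strand of its gene.
Cdkn1a, chr17:29090729-29090978, plus strand: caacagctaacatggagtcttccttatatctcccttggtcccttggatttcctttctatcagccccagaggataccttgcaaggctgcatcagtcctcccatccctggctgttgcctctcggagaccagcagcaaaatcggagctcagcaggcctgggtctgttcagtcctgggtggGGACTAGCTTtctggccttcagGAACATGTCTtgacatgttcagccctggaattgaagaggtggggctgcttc
Ccng1, chr11:40755442-40755491, minus strand: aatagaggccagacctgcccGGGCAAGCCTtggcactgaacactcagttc
Bax, chr7:45467070-45467119, minus strand: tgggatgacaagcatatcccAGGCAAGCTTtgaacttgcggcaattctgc
Mdm2, chr10:117710915-117710964, minus strand: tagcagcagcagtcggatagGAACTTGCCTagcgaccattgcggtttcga
Trp53, chr11:69580264-69580313, plus strand: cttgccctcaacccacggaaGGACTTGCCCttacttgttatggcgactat
The Cdkn1a decamers end 64 and 42 bases before the transcript start of the upstream window. Those of the other genes end 66 to 192 bases before the start of their window. Of the 4 windows at Bbc3 and Cdkn1b none held these letters. These matches describe the sequence and were not tied to binding in this tissue.

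The libraries held 8561687 to 19801300 expected counts, which are estimated reads per gene, and the deepest was cKO replicate 3. It was also the only library with male RNA, with Ddx3y at 101 CPM (counts in each 1e6 of the scaled library total) and Xist at 2.11 CPM, whereas Xist ranged from 1754 to 2097 CPM in the other libraries. CPM values here are scaled between libraries by TMM, edgeR's trimmed mean of ratios. Hif1a had 716 and 663 CPM in cKO replicates 2 and 3, and 530 and 552 CPM in control replicates 2 and 3. Gene-level counts take in exons outside the floxed part and so do not check the deletion. Nkx2-5 had 44.3 and 42.1 CPM in cKO and 55.9 and 64.9 CPM in control. All 14 heart muscle marker genes were detected, and their summed level was 43491 to 47304 CPM in cKO and 45283 to 47857 CPM in control.

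None of the 10 genes changed between cKO and control ventricles by edgeR's quasi-likelihood test at an adjusted p of 0.05. The largest differences were in Cdkn1a and Trp53inp1, whose fold changes (cKO over control) were 1.34 and 1.25. Trp53 itself, Mdm2, Ccng1 and Cdkn1b differed by at most 3.96% of the control level. Over all 13711 genes tested 70 passed (0.511%). At an unadjusted p of 0.05 the count among the 10 was 1, Trp53inp1, against 6.97% of all genes, and DESeq2 and limma-voom also called 0 of the 10. All 10 genes passed the filter on low counts. With 2 libraries a group, 2 residual degrees of freedom remain. edgeR borrows spread across genes, and its tests and intervals used a median of 8.14 degrees of freedom in total. The narrow intervals rest on that borrowing. The labels do not say whether the libraries of a group came from separate embryos. The Xist and Ddx3y levels show a female and a male source for the cKO libraries. The spread between the control libraries may be technical. The p-values rest only on the spread between these 4 libraries, moderated across genes.

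**Figure D1:**
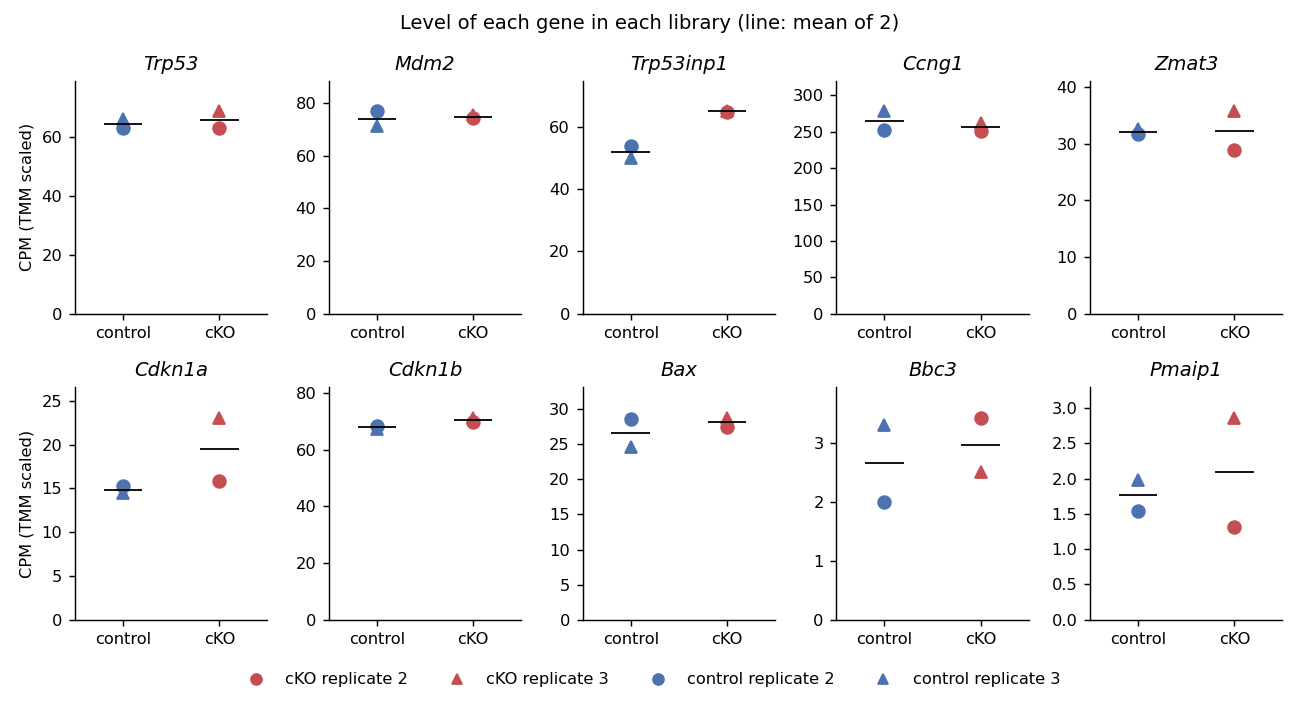
Level of each of the 10 genes in CPM (linear axis from 0) in the 2 control libraries (blue) and the 2 cKO libraries (red), with circles for replicate 2, triangles for replicate 3 and a line at the mean of 2. For Trp53inp1 both cKO points (64.8 and 64.9 CPM) lie above both control points (53.8 and 50.1 CPM), and for Cdkn1a cKO replicate 3 (23.1 CPM) stands above the other 3 libraries.

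Trp53 (ENSMUSG00000059552, GRCm38 chromosome 11, 69580359 to 69591873, plus strand) differed between the groups by less than the spread of the libraries. It had 63.1 and 68.8 CPM in cKO replicates 2 and 3 and 63.01 and 66.3 CPM in control replicates 2 and 3, so the groups overlapped. The log2 fold change was 0.032 ± 0.092 (SE, adjusted p = 0.962), with a 95% interval of -0.18 to 0.24. These intervals come from the SE and degrees of freedom of the edgeR fit and are not adjusted for the number of genes. A processed pseudogene on chromosome 17, Trp53-ps, matches Trp53 over 353 bases at 97.7% identity and is listed at 0 in all 4 libraries.

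Mdm2 (ENSMUSG00000020184, chromosome 10, 117688875 to 117710758, minus strand), the ligase that closes the feedback loop on p53, had 74.1 and 75.4 CPM in cKO and 76.8 and 71.2 CPM in control. Both cKO values lay between the control values. Its log2 fold change was 0.015 ± 0.086 (adjusted p = 0.981), with an interval of -0.18 to 0.21, so that neither a rise above 1.16-fold nor a fall below 0.881 of control lies inside it.

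Trp53inp1 (ENSMUSG00000028211, chromosome 4, 11156431 to 11174379, plus strand) encodes a stress-induced nuclear protein that promotes p53 phosphorylation and also takes part in autophagy. It had 64.8 and 64.9 CPM in cKO replicates 2 and 3, against 53.8 and 50.1 CPM in control replicates 2 and 3. The groups did not overlap, and the cKO libraries differed from each other by far less than the control libraries did. That cKO difference is below the counting error of those libraries (3.95% and 2.78%, defined below). It is therefore no guide to the spread between cKO libraries. Mean levels (± SD, n = 2) were 64.9 ± 0.0407 CPM for cKO against 51.9 ± 2.63 CPM for control. The log2 fold change of 0.32 ± 0.090 had an interval of 0.12 to 0.53 and an unadjusted p of 0.00699, but it did not pass edgeR's test over all genes (adjusted p = 0.430). The difference of 25.0% compares with a counting error of 2.78% to 4.69% in a library, the relative error that the square root of the count gives. With each library left out in turn the log2 fold change ranged from 0.27 to 0.37, and the adjusted p from 0.215 to 0.805.

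Ccng1 (ENSMUSG00000020326, chromosome 11, 40748552 to 40755311, minus strand) encodes cyclin G1, which recruits a phosphatase to MDM2. Its levels were 251 and 262 CPM in cKO and 252 and 278 CPM in control. The log2 fold change was -0.048 ± 0.086 (adjusted p = 0.932; interval -0.24 to 0.15), the only negative one of the 10. Zmat3 (ENSMUSG00000027663, chromosome 3, 32334792 to 32366014, minus strand), an RNA-binding protein that acts in mRNA stability and splicing, had 28.9 and 35.7 CPM in cKO and 31.7 and 32.6 CPM in control. The cKO libraries lay on either side of the controls. Its log2 fold change of 0.021 ± 0.12 (adjusted p = 0.981) was -0.15 without cKO replicate 3 and 0.15 without cKO replicate 2.

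Cdkn1a (ENSMUSG00000023067, chromosome 17, 29090976 to 29100727, plus strand) encodes p21, the CDK inhibitor through which p53 arrests cells in G1. It had 15.9 CPM in cKO replicate 2 and 23.1 CPM in cKO replicate 3, against 15.2 and 14.4 CPM in control replicates 2 and 3. The groups did not overlap, yet cKO replicate 2 lay closer to the controls than to the other cKO library. Mean levels (± SD, n = 2) were 19.5 ± 5.11 CPM for cKO against 14.8 ± 0.569 CPM for control. An unclassified transcript on the opposite strand, AC167363.2, shares 273 of its 3553 exonic bases, and the library kit did not mark strand. The log2 fold change was 0.42 ± 0.19 with an interval of -0.014 to 0.85, and edgeR's test did not call it (unadjusted p = 0.0560, adjusted p = 0.708). It was 0.64 without cKO replicate 2 (adjusted p = 0.140) and 0.098 without cKO replicate 3, the deepest library and the only one with male RNA. The 8 marker genes of cushion mesenchyme summed to 1821 CPM in cKO replicate 2, 2394 CPM in cKO replicate 3, and 2022 and 2388 CPM in the controls. Vcan and the collagens make up most of that sum. The median log2 ratio of the 8 genes to the control mean was -0.30 for cKO replicate 2, and for cKO replicate 3 it was 0.42. Postn, a matrix protein of cushion cells, had 88.2 and 211 CPM in cKO replicates 2 and 3 and 117 and 144 CPM in the controls. The transcription factors Sox9 (10.8 CPM), Twist1 (8.84 CPM) and Prrx1 (8.34 CPM) were also highest in cKO replicate 3, against at most 6.95, 4.19 and 5.44 CPM in the other libraries. Postn, Sox9, Twist1 and Prrx1 were highest in the library that had the highest Cdkn1a, but they are only a part of the list. Of its 8 genes 4 had a log2 fold change (cKO over control) above 0 and 4 below 0. The sum over all 8 genes did not set that library apart from control replicate 3 (2394 against 2388 CPM). Vcan and the collagens are not given by library here. The part of sex, depth or mesenchyme in the Cdkn1a level was not tested.

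Cdkn1a also lies 2.25 megabases from Nkx2-5, the locus that carries the Cre, on the same chromosome. Of the 37 genes tested that lie between them, 0 were higher and 1 was lower by edgeR's test (0.146% and 0.365% of all genes). The median log2 fold change of the 37 was -0.0029. An effect of the Cre-bearing chromosome on Cdkn1a and one of Hif1a loss cannot be told apart. Trp53cor1, the long noncoding RNA also called lincRNA-p21, is transcribed upstream of Cdkn1a (ENSMUSG00000085912, chromosome 17, 29057430 to 29079179, minus strand). It had 3.24 and 4.02 CPM in cKO and 2.13 and 2.21 CPM in control, from 18 to 80 counts a library. Its groups did not overlap, and at a log2 fold change of 0.76 ± 0.32 the adjusted p was 0.702. It shares 1645 exonic bases with AC167363.1 on the opposite strand.

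Cdkn1b (ENSMUSG00000003031, chromosome 6, 134920401 to 134925513, plus strand) encodes p27, which holds CDK2 in check and is regulated largely through protein turnover. It had 69.6 and 71.3 CPM in cKO and 68.3 and 67.3 CPM in control. The groups did not overlap, but the difference of 3.96% was about the size of the counting error of a single library, 2.65% to 4.16%. Its log2 fold change was 0.056 ± 0.084 (adjusted p = 0.920; interval -0.14 to 0.25).

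Bax (ENSMUSG00000003873, chromosome 7, 45461697 to 45466898, minus strand) encodes the protein that permeabilises the outer mitochondrial membrane in apoptosis. It had 27.4 and 28.8 CPM in cKO and 28.6 and 24.6 CPM in control, and the groups overlapped. The log2 fold change was 0.084 ± 0.11 (adjusted p = 0.910; interval -0.17 to 0.34). Bax shares 192 of its 1576 exonic bases with Gm45808 on the same strand. Bbc3 (ENSMUSG00000002083, chromosome 7, 16308393 to 16318205, plus strand), which encodes the BH3-only activator PUMA, had 3.44 and 2.51 CPM in cKO and 2.01 and 3.31 CPM in control. Each group spanned much of the range of the other. Its log2 fold change of 0.13 ± 0.37 (adjusted p = 0.962) had an interval of -0.72 to 0.98, and it turned negative without cKO replicate 2 (-0.086) and without control replicate 2 (-0.18).

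Pmaip1 (ENSMUSG00000024521, chromosome 18, 66458533 to 66465565, plus strand) encodes NOXA, the BH3-only protein that neutralises MCL1. It had 1.32 and 2.86 CPM in cKO and 1.54 and 1.98 CPM in control, the lowest and the highest of the 4 both being cKO libraries. These values rest on 13, 57, 13 and 18 counts in the same order, with a counting error of 13.2% to 27.7%. The log2 fold change of 0.31 ± 0.45 (adjusted p = 0.917) had an interval of -0.73 to 1.35 and was -0.42 without cKO replicate 3. For Bbc3 and Pmaip1 a difference of up to 1.97-fold and 2.55-fold lies inside the interval, so these data do not exclude a change of that size.

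**Figure D2:**
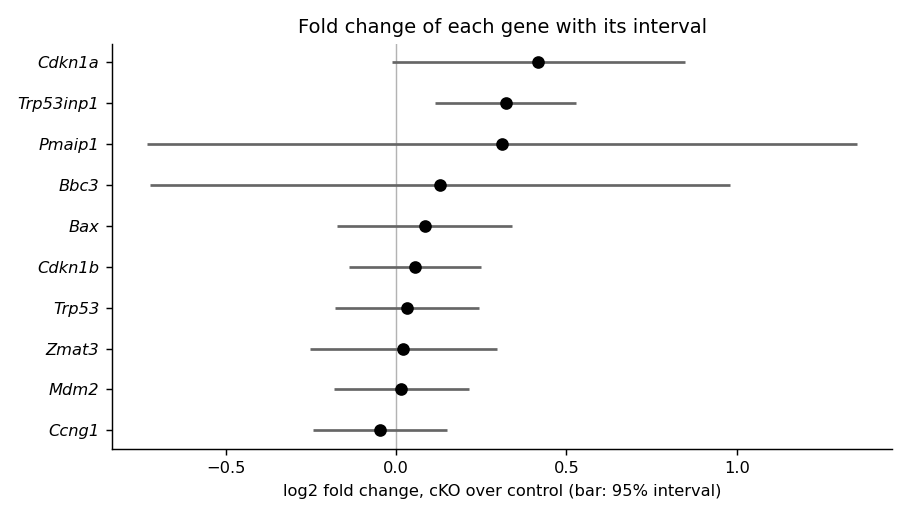
Log2 fold change of each gene, cKO over control (points), with its 95% interval from the edgeR fit (bars). The interval of Trp53inp1 (0.12 to 0.53) lies above 0 before adjustment over genes, the other 9 include 0, and those of Bbc3 and Pmaip1 are the widest.

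Precision differed widely among the 10 genes. For Trp53, Mdm2, Ccng1 and Cdkn1b the whole 95% interval lay within 1.2-fold of no change in either direction, as it did for 15.5% of all genes tested. Of the 10 genes 9 had a log2 fold change above 0, against 49.9% of all genes, with a median of 0.070 against -0.00031 over all genes. That count rests on small differences: 7 of the 10 changed sign in at least 1 of the 4 fits that left out a library, and the median then ranged from 0.020 to 0.10. Groups did not overlap for 3 genes (Trp53inp1, Cdkn1a and Cdkn1b), all higher in cKO, where 19.4% of all genes tested were higher in cKO without overlap and 38.2% were without overlap in either direction. In RNA from whole ventricles, fewer cells of a type and less RNA per cell cannot be told apart.

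**Figure D3:**
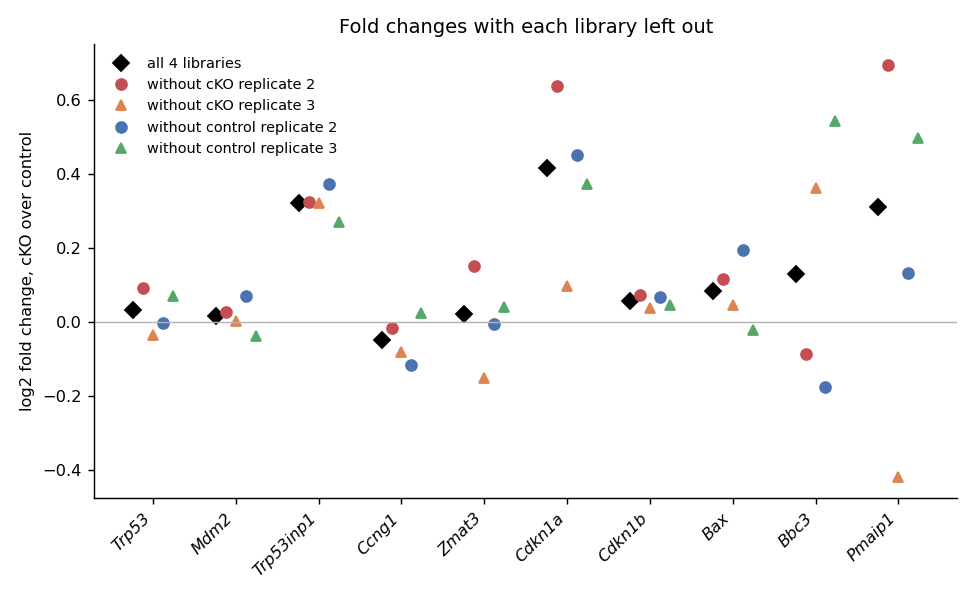
Log2 fold change of each gene, cKO over control, with all 4 libraries (black diamonds) and with each library left out (colours and shapes as in the legend). Trp53inp1 stays between 0.27 and 0.37, Cdkn1a spreads from 0.098 to 0.64, and Pmaip1 crosses 0.

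Per length of exon, the 10 genes covered a 105-fold range of levels. Cyclin G1 (Ccng1) was highest in every library, with 71.4 to 79.2 CPM per kilobase. Bax, Trp53, Cdkn1b and Mdm2 followed, in that order of their means, together between 14.0 and 18.3 CPM per kilobase. Neighbours in this order overlapped over the 4 libraries, although Trp53 was above Cdkn1b within each of the 4 libraries. Trp53inp1 came next at 7.73 to 10.0 CPM per kilobase, then Cdkn1a at 4.07 to 6.50 and Zmat3 at 2.53 to 3.12. Levels of these did not overlap with those of their neighbours. The death effectors Bbc3 (0.946 to 1.62 CPM per kilobase) and Pmaip1 (0.481 to 1.05) were lowest and overlapped with each other. Lengths were unions of all annotated exons, so a gene with long rare exons is understated. With the longest transcript in place of the union, 7 genes kept their place and Mdm2 moved from the fifth to the third.

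**Figure D4:**
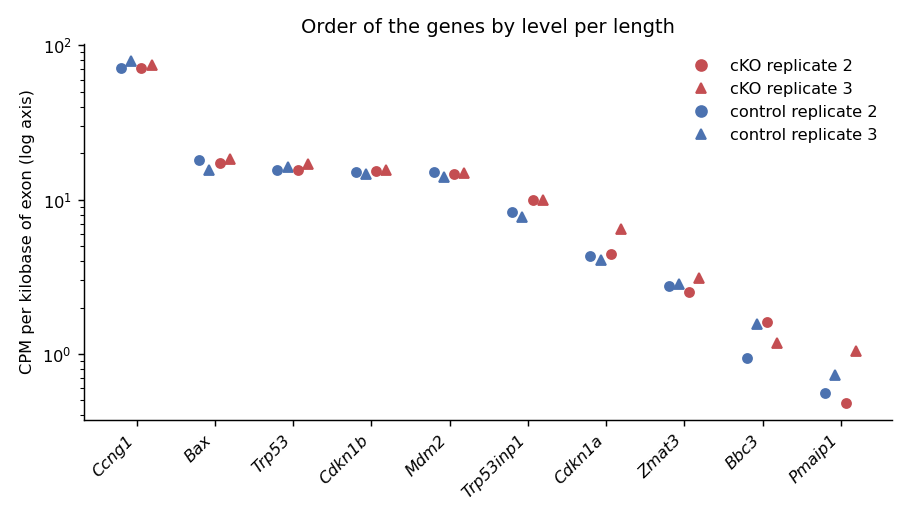
CPM per kilobase of annotated exon (log axis) for the 10 genes in each library, ordered by the mean of all 4 libraries. Ccng1 stands alone at 71.4 to 79.2, and Bbc3 and Pmaip1 lie at or below 1.62.

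Other known p53 targets were taken from 2 lists, of cell cycle arrest, repair and metabolism and of cell death. Of these 37 genes 34 were tested and 0 passed edgeR's test, and Gls2, Gdf15 and Dram1 were too low to test. Their median log2 fold change was 0.094, 23 were above 0, and without overlap between groups 12 were higher and 2 lower in cKO (19.4% and 18.8% of all genes). At an unadjusted p of 0.05 there were 4 of 34, all higher (3.39% of all genes), Trp53cor1, given above, and the 3 that follow. Rps27l, a ribosomal protein S27-like gene and the member of its list with the highest level per kilobase, had 76.4 and 75.6 CPM in cKO and 66.0 and 51.1 CPM in control (log2 fold change 0.38 ± 0.12, adjusted p = 0.545). Eda2r, a receptor of the TNF receptor family on chromosome X, had 7.28 and 10.7 CPM in cKO and 5.67 and 5.95 CPM in control (0.65 ± 0.24, adjusted p = 0.646). As with Cdkn1a, cKO replicate 3 was its highest library, which also held for Trp53cor1 and for Aen, given next. For Rps27l cKO replicate 2 was the highest. Aen, a nuclease that digests DNA in apoptosis, had 38.3 and 41.3 CPM in cKO and 32.9 and 34.4 CPM in control (0.25 ± 0.094, adjusted p = 0.651). Perp, a membrane protein and the most abundant of the death targets per kilobase, had a log2 fold change of 0.004 ± 0.11.

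The genes that control p53 likewise showed 0 calls among the 14 tested of 17, with a median log2 fold change of -0.055. Those with the smallest p were the damage-response kinases Chek2 (11.6 and 11.9 CPM in cKO, 13.1 and 14.2 CPM in control, adjusted p = 0.804) and Atm (52.3 and 52.8 against 58.5 and 54.3 CPM, adjusted p = 0.863). Usp7, which removes ubiquitin from p53 and MDM2, had the highest level per kilobase and a log2 fold change of -0.070 ± 0.078. Cdkn2a, whose ARF product inhibits MDM2, had 1 count in 1 control library and 0 in the other 3. The p53 relatives Trp63 and Trp73 had at most 8 counts a library.

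Of the 7 CDK inhibitor genes, a list that includes Cdkn1a and Cdkn1b, 5 were tested and 0 passed (median log2 fold change 0.018). Cdkn1c, which encodes p57 and is imprinted, was the most abundant per kilobase. It had 775 and 600 CPM in cKO and 687 and 671 CPM in control (0.018 ± 0.12, edgeR's adjusted p = 0.984). Cdkn1c shares 625 of its 2039 exonic bases with Gm44732 on the opposite strand, so reads there could not be told apart. Cdkn2c had 9.10 and 7.79 CPM in cKO against 9.81 and 8.82 CPM in control (-0.15 ± 0.19, adjusted p = 0.898). Cdkn2a and Cdkn2b, with 0 to 14 counts, were too low to test. Of 7 genes that act in the turnover of these inhibitors 0 passed; Dtl, a substrate receptor that targets p21 for destruction in S phase, had -0.19 ± 0.090 (adjusted p = 0.733), and Cks1b, the cofactor for p27 degradation, 0.14 ± 0.085 (adjusted p = 0.774).

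None of the 16 G1 cyclin, CDK, pocket protein and E2F genes passed (median -0.089, with 12 of 16 below 0). Rb1, the pocket protein that restrains E2F, had the smallest p, at 29.9 and 32.2 CPM in cKO and 42.8 and 38.7 CPM in control. Its groups did not overlap, and its log2 fold change was -0.39 ± 0.099 (unadjusted p = 0.00447, adjusted p = 0.343). Its exons share 488 bases with Rcbtb2 and 408 with Lpar6, both on the opposite strand, so reads there could not be told apart. The same holds for 510 bases of Ccna2 shared with Exosc9 and 641 bases of Cdk4 shared with Tspan31. Ccna2 had -0.13 ± 0.080 (adjusted p = 0.786), and Cdk4, the most abundant per kilobase, 0.096 ± 0.082 (adjusted p = 0.853).

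Among the 16 tested of 18 BCL2 family genes 1 fell and 0 rose (median 0.034), a list that includes Bax, Bbc3 and Pmaip1. The gene that fell was Bnip3, a mitophagy receptor of this family induced by low oxygen, with 32.1 and 34.6 CPM in cKO and 159 and 144 CPM in control (-2.18 ± 0.095, adjusted p = 3.15e-05). A pseudogene copy of Bnip3, Gm16439, which matches it over 564 bases, is listed at 0 in all 4 libraries. The pseudogene copies Gm9419 and Gm6532 have no row in the deposited table. Bnip3 also shares 504 of its 2265 exonic bases with Gm45507 on the opposite strand. Its relative Bnip3l, chosen after its values were seen, had -0.41 ± 0.077 (adjusted p = 0.0979) and was called by DESeq2 (adjusted p = 0.0258). Mcl1, the survival protein that NOXA binds, was the most abundant per kilobase by the mean of all 4 libraries. It had 158 and 164 CPM in cKO and 170 and 169 CPM in control (edgeR's adjusted p = 0.883). In both control libraries Bnip3 was higher, with 70.1 and 63.4 CPM per kilobase against 49.6 and 49.6 for Mcl1. Of 12 caspases and their regulators 0 passed; cytochrome c (Cycs), which has near-identical copies that could share its reads, had 0.19 ± 0.095 and Casp6 0.16 ± 0.10. Of 7 paralogues of the 10 genes 0 passed, among them Ccng2 at -0.13 ± 0.10 and Ccni, also matched by pseudogenes, at -0.071 ± 0.079.

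**Figure D5:**
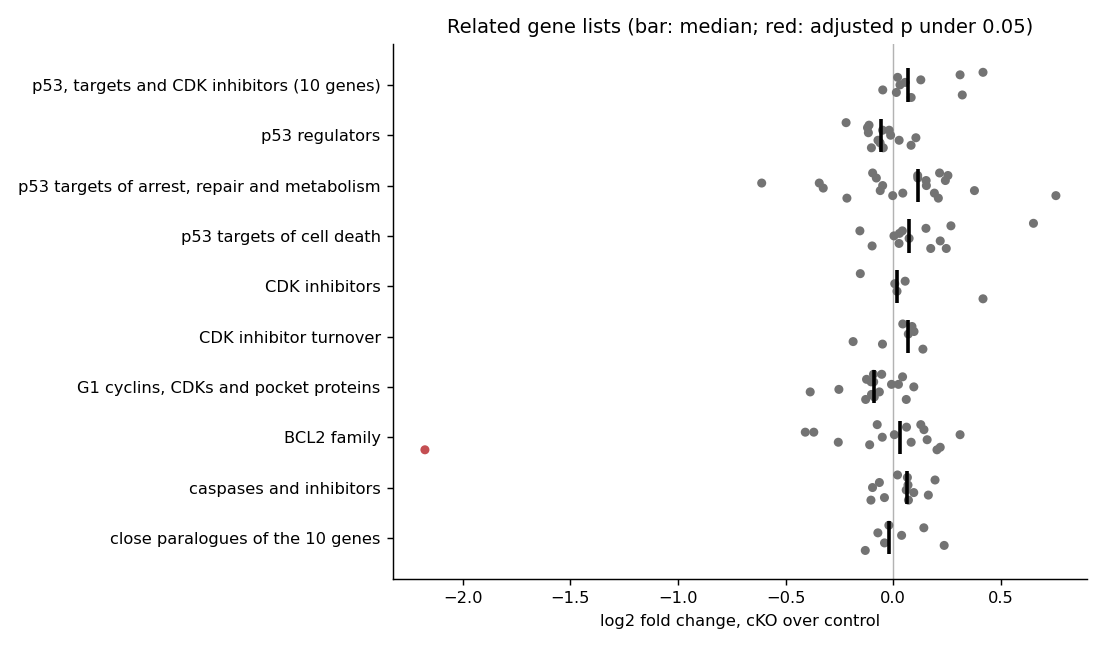
Log2 fold change, cKO over control, of each tested gene in the 10 genes and in 9 related lists (points, with a bar at the median and red for adjusted p under 0.05). Medians lie between -0.089 and 0.11, and Bnip3 at -2.18 is the 1 gene past the threshold.

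Marker levels of other cells also differed between libraries. The 10 endothelial and endocardial genes all had negative log2 fold changes, with 0 past edgeR's test, and summed to 1410 to 1527 CPM in cKO and 1638 to 1762 CPM in control. The 9 epicardial genes summed to 359 and 276 CPM in cKO and 340 and 384 CPM in control, and 1 of them, Krt19, fell (adjusted p = 0.0347). The 10 erythroid genes summed to 2839 CPM in cKO replicate 2 against 5361 to 6867 CPM in the other 3 libraries, and the 7 immune genes to 70.6 to 106 CPM. No marker in these lists was at 0 in all libraries. The part of these cells in the levels of p53 and its targets was not tested.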

How the data were processed

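Libraries were prepared with a TruSeq v2 kit from 500 ng RNA and read single-end over 75 bases, per the labels' protocols. Expected counts per gene, estimated by the authors, are the deposited unit. CASAVA 1.8.2, cutadapt 1.3, RSEM 1.2.3 and GRCm38 are named per the submitters' processing notes; an aligner and an annotation release were not given in the sources used here. Symbols, positions and exon lengths came from GENCODE release M21 (GRCm38), which named 36429 of 38293 identifiers.

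Expected counts were rounded, filtered by edgeR's default filter by group (minimum count 10, minimum total 15), scaled by TMM and compared with edgeR 4.0.16 (glmQLFit, glmQLFTest, R 4.3.3) over 13711 genes with Benjamini-Hochberg adjustment. SEs were taken as |log2 fold change| over the root of the F statistic. Alternatives were DESeq2 1.42.0, limma-voom 3.58.1, other scalings and filters, a replicate block and each library left out. Copies of at least 95% identity over 300 bases were sought with BLAST 2.17.0. Of these steps only the main edgeR fit, with its filter and scaling, was run on simulated counts, and the outcome is not given here.

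The 10 genes and the related lists were chosen with earlier results of these data known. Named genes were, per list, up to 4 past the threshold or else the 2 with the smallest p, and the most abundant per kilobase. Bnip3l, Postn and Prrx1 were given values outside this rule. The libraries within each group were not repeats of 1 library: the ratio of chi-square to its degrees of freedom was 13.0 between the cKO libraries and 5.77 between the controls.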

Additional observations from a re-analysis of the deposited data

How the results depend on the processing

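None of the 10 genes passed under any of the 11 alternatives (smallest adjusted p 0.140, for Cdkn1a without cKO replicate 2), and the 7 alternatives that kept all libraries changed the sign of none of the genes they tested. The stricter filter did not test Bbc3 and Pmaip1. Genes called over the whole table numbered 70, and 39 to 141 with a library left out (20 higher, 15 to 72 with a library left out; 50 lower, 24 to 69). DESeq2's own test gave 31 higher and the mean of at least 5 CPM gave 10. DESeq2's test called 2 of the genes of the related lists in place of 1, adding Bnip3l (adjusted p 0.0258). Genes without overlap numbered 3, and 6 to 7 with a library left out, where a lone library makes overlap less likely. With a library left out the log2 fold changes that turned sign ranged from -0.035 to 0.091 for Trp53, -0.038 to 0.070 for Mdm2, -0.12 to 0.025 for Ccng1, -0.15 to 0.15 for Zmat3, -0.023 to 0.19 for Bax, -0.18 to 0.54 for Bbc3 and -0.42 to 0.70 for Pmaip1; the cause was not tested. With 1 library left in a group, its spread was taken from the other group. The replicate block called 75 genes and 0 of the 10; same-numbered libraries had a correlation of deviations of 0.106 across genes, and no label gives a number a shared origin.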
